A study of Mus musculus with 10 samples.

Results

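The genes Mest, Sfrp5, Bmp3 and Npr3 were followed in inguinal white adipose tissue (iWAT) from male mice, in which their exon and intron reads were counted. They are 4 of the 51826 genes listed and of the 33120 with an exon length. Mest was chosen by the difference in its exon reads between the diets, and the other 3 were taken by name, as genes known to vary with Mest in expanding fat. Because the diet differences of all 4 were known by then, they are given below as values, without printed p-values. Where a diet difference of the 4 genes is said to be past a threshold, this is a description only. All mice were C57BL/6 males (C57BL6/JJmsSlc background), and 1 library was made per mouse. In the F1 generation, iWAT was taken at 5 weeks of age from 3 sons of fathers on a control diet (CD) and from 3 sons of fathers on a low-protein diet (pLPD), and all F1 mothers had eaten CD. In the F0 generation, iWAT was taken at 10 to 12 weeks from 2 males fed CD and 2 males fed the low-protein diet (LPD) themselves. The 3 F1 mice of a group came from different mothers, whereas no source used here says which father each son had or how the F0 mice were related. The fits treat all mice as independent. The library names in the labels carry one prefix for all F0 and another for all F1 mice, so generation, age and library prefix coincide and cannot be told apart. Because iWAT is a mixed tissue, fewer cells of a type and less RNA per cell cannot be told apart either.

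Fat pads enlarge when adipocytes store more triglyceride and when progenitors form new adipocytes, and the 4 genes are known in mice as ones whose adipose mRNA varies with such expansion. Mest is an imprinted gene, transcribed from the paternally inherited allele in most tissues, and encodes a membrane protein of the endoplasmic reticulum related to hydrolases. Sfrp5 encodes a secreted decoy that binds WNT ligands, Bmp3 a secreted member of the bone morphogenetic protein family that opposes other BMPs, and Npr3 the clearance receptor that removes natriuretic peptides from the surroundings of the adipocyte.

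The 4 genes lie on different chromosomes in mm10, the build of the files. Mest (ENSMUSG00000051855) spans chr6:30723547-30748465 on the plus strand, with 33 exons in 11 transcripts and 3945 bases of exon. Sfrp5 (ENSMUSG00000018822) spans chr19:42197971-42202252 on the minus strand, with 3 exons and 1900 bases of exon. Bmp3 (ENSMUSG00000029335) spans chr5:98854415-98884396 on the plus strand, with 7 exons and 7398 bases of exon. Npr3 (ENSMUSG00000022206) spans chr15:11839896-11905674 on the minus strand, with 8 exons and 6927 bases of exon.

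The sequences before the starts of Mest and Sfrp5, which both differed most between the F0 diets, are shown beside that of Npr3, which differed little. Each holds the 250 bases before a RefSeq start site (GRCm38.p6), written 5′ to 3′ on the strand of the gene, at chr6:30737800-30738049 for Mest, chr19:42202253-42202502 for Sfrp5 and chr15:11907372-11907621 for Npr3. Capitals mark a GC box (GGGCGG on either strand) or a CCAAT box (CCAAT on either strand).
Mest: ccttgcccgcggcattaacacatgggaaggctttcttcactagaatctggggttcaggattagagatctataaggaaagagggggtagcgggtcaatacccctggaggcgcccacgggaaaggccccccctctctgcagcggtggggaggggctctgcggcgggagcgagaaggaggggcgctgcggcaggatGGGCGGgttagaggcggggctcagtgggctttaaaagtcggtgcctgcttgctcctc
Sfrp5: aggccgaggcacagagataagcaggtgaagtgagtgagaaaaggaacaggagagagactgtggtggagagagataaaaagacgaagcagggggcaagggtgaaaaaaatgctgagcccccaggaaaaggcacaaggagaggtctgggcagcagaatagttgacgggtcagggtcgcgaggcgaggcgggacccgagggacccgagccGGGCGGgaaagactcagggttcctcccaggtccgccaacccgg
Npr3: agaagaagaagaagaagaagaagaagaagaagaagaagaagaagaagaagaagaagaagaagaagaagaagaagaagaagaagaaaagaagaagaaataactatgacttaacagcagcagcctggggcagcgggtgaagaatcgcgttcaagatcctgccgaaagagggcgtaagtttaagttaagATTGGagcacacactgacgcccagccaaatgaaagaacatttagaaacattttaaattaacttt
RefSeq promoters were found for 3 of the 4 genes, Bmp3 being the exception. The RefSeq starts of Mest lie within the span given in the files, whose reads are not split between them, and the Npr3 start lies upstream of that span. The windows of Mest and Sfrp5 each held 1 GC box, as did that of another Mest start at chr6:30733256-30733505, and the window of Npr3 held 1 CCAAT box. GC boxes occurred in 32.7% and CCAAT boxes in 33.8% of the 32851 promoter windows of the same length, so both are common. TATAAA (12.4% of windows) and the E-box CACGTG (6.02%) were not found in these windows on either strand. The Mest window shown had a GC content of 62.4% with 14 CG pairs and that of Sfrp5 59.6% with 13. The window of the Mest start at chr6:30733256-30733505 had 60.8% with 7, and that of Npr3 38.8% with 6. Over all windows the medians were 52.4% and 6, with quartiles of 45.2% to 61.2% and 2 to 16. The CG counts of these windows thus lay within the quartiles. The windows were shown with the diet differences known, so nothing is read from their contrast.

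Exon reads summed to 6351075 to 10044546 per library. A level of 3 reads corresponded to 0.299 to 0.472 per 1000000 exon reads before normalization, which covers counting error only. Levels below are counts per 1000000 reads of the TMM-normalized library (CPM). Adipocyte markers were present in every library, with a summed level of 12875 to 21329 CPM over 8 genes. In the F0 mice, the 8 skeletal muscle markers summed to 1440 and 2196 CPM on CD and to 699 and 958 CPM on LPD. All 8 were below 0 in log2 fold change and 5 were past an adjusted p of 0.05 in edgeR's test, as were 2.5% of all genes. In the F1 mice the skeletal muscle markers summed to 39.7 to 169 CPM. There, the 6 macrophage markers summed to 671 to 756 CPM in pLPD against 952 to 1167 CPM in CD offspring. All 6 were below 0 in log2 fold change and 4 were past that threshold, as were 1.17% of all genes. Introns held 40.7% to 48.4% of the reads on protein-coding genes in pLPD offspring and 36.0% to 37.9% in the other libraries. The part of these differences in the diet comparisons of the 4 genes was not tested.

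To see where each gene stood before the diets are compared, levels were first set side by side per length of exon, in the RPKM given by the authors. In F1 mice with CD fathers, Npr3 stood at 17.5 ± 4.48 RPKM (SD, n = 3), far above Mest at 2.25 ± 0.495, Bmp3 at 1.98 ± 0.259 and Sfrp5 at 1.30 ± 0.613. In F0 mice fed CD, Npr3 was again highest at 38.3 ± 2.47 RPKM (SD, n = 2), followed by Sfrp5 at 5.19 ± 0.342, Bmp3 at 3.97 ± 0.962 and Mest at 2.23 ± 0.974. On LPD, Mest stood at 67.8 ± 34.6 RPKM (n = 2), its 2 mice at 43.3 and 92.3 lying on either side of Npr3 at 39.9 and 51.5, while Sfrp5 was at 38.4 ± 18.1 and Bmp3 at 4.95 ± 1.40. Thus a gene of low level on CD lay within or above the range of Npr3 in the LPD-fed males.

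Mest was higher after LPD in both generations. In F1 offspring of CD fathers it had 14.3, 19.9 and 20.7 CPM (106, 172 and 154 exon reads), and in pLPD offspring 56.5, 37.3 and 42.7 CPM (369, 275 and 274 reads). Every pLPD mouse lay above every CD mouse. The log2 fold change was 1.32 ± 0.18 (SE) from edgeR's quasi-likelihood fit, or 2.49-fold. In F0 males, Mest had 22.0 and 11.4 CPM on CD (197 and 114 reads) and 342 and 710 CPM on LPD (3256 and 6066 reads). The lowest LPD mouse was far above both CD mice, and the log2 fold change was 4.99 ± 0.39 (31.7-fold). Without F1 CD mouse 1, the F1 difference was 1.17 ± 0.18, and without F0 LPD mouse 2, the F0 difference was 4.37 ± 0.24.

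**Figure D1:**
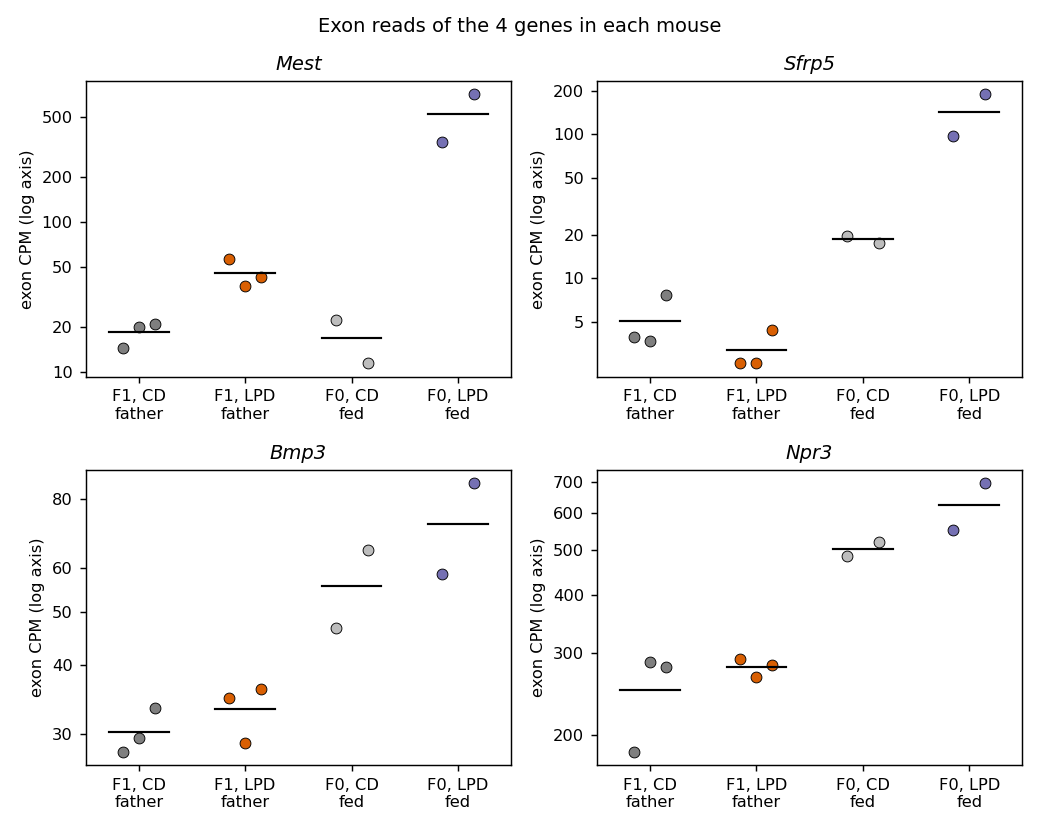
Exon reads of Mest, Sfrp5, Bmp3 and Npr3 as TMM-normalized CPM on log axes, 1 point per mouse, with a line at the mean of each group (n = 3 in F1, n = 2 in F0). Mest is higher in both LPD groups (2.49-fold in F1, 31.7-fold in F0), Sfrp5 is higher on LPD in F0 (7.65-fold) but overlaps between the F1 groups, and Bmp3 and Npr3 differ mainly between F1 and F0.

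Sfrp5, the WNT decoy, was highest in the LPD-fed males and lowest in the F1 groups. F0 males had 19.8 and 17.7 CPM on CD (177 reads in each mouse) and 97.4 and 190 CPM on LPD (927 and 1621 reads), without overlap. The log2 fold change was 2.93 ± 0.28 (7.65-fold). In F1, Sfrp5 had 3.91, 3.70 and 7.66 CPM in the CD group (29, 32 and 57 reads) and 2.60, 2.58 and 4.36 CPM in the pLPD group (17, 19 and 28 reads). The F1 groups overlapped, and the log2 fold change was -0.67 ± 0.37, and -0.26 ± 0.38 without F1 CD mouse 3. Counts this low leave the F1 difference imprecise, with an interval of -1.40 to 0.06 (1.96 SE).

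Bmp3, the BMP antagonist, varied less with diet. It had 27.8, 29.5 and 33.5 CPM in F1 CD mice (206, 255 and 249 reads) and 34.9, 28.9 and 36.2 CPM in pLPD mice (228, 213 and 232 reads), so the groups overlapped. In F0 it had 46.7 and 64.6 CPM on CD (417 and 647 reads) and 58.6 and 85.6 CPM on LPD (558 and 732 reads), and the groups overlapped again. The log2 fold changes were 0.15 ± 0.12 in F1 and 0.37 ± 0.19 in F0, neither past the threshold. The F0 value of 0.37 was past the threshold when genes of low counts were kept, and also with the replicate block.

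Npr3, the clearance receptor, had the highest exon read counts of the 4 genes in F1 and in CD-fed F0 mice. F1 mice had 184, 287 and 280 CPM in the CD group (1365, 2484 and 2083 reads) and 291, 267 and 284 CPM in the pLPD group (1902, 1970 and 1820 reads). The F1 CD mouse 1 stood apart at the low end and the other F1 mice overlapped. In F0, Npr3 had 486 and 521 CPM on CD (4341 and 5219 reads) and 552 and 696 CPM on LPD (5256 and 5948 reads), without overlap. The log2 fold changes of 0.17 ± 0.14 in F1 and 0.31 ± 0.13 in F0 were not past the threshold, and without F1 CD mouse 1 the F1 value was -0.01.

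In the F1 comparison, then, 1 of the 4 genes, Mest, was past the adjusted threshold of 0.05, as were 164 of all 14049 genes tested (1.17%), 20 of them higher in pLPD offspring (0.142%). Without F1 CD mouse 1, Mest was not past it. In the F0 comparison it was 2 of the 4, Mest and Sfrp5, against 364 of 14581 (2.5%), 172 of them higher on LPD (1.18%). Groups that did not overlap, as for Mest in F1 and for Mest, Sfrp5 and Npr3 in F0, were found, with the LPD group higher, for 9.21% of genes in F1 and 22.8% in F0. Since the genes were chosen with these comparisons known, nothing is read from their share. The log2 diet difference in F1 minus that in F0 was -3.68 ± 0.46 for Mest and -3.61 ± 0.51 for Sfrp5, both past the threshold in the fit of all 10 libraries, as were 189 of 15111 genes (1.25%), 135 of them below 0 (0.893%). Without F0 LPD mouse 2 the value of Mest was -3.06. For Bmp3 it was -0.23 ± 0.25 and for Npr3 -0.15 ± 0.23, not past it. These values, too, use the differences by which the genes were chosen.

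F1 and F0 mice on CD, without any LPD exposure, were compared next. The genes were not chosen by this difference itself. However, the same CD mice were the baselines of the diet comparisons known at the choice. The spread was also estimated with the LPD libraries included. The adjusted p-values given for the 4 genes are thus not independent of the choice, and their calls are a description. Here 3 of the 4 genes were lower in F1 at 5 weeks than in F0 at 10 to 12 weeks, by edgeR's quasi-likelihood test with Benjamini-Hochberg adjustment in the fit of all 10 libraries. Of all 15111 genes, 2857 were past the threshold (18.9%), 1326 of them lower in F1 (8.78%). Sfrp5 had 5.09 ± 2.23 CPM (SD, n = 3) in F1 and 18.7 ± 1.51 (n = 2) in F0, a log2 difference of -1.89 ± 0.34 (3.70-fold lower, edgeR adjusted p = 0.00204). Npr3 had 251 ± 57.6 CPM in F1 and 504 ± 25.0 in F0, a log2 difference of -1.01 ± 0.16 (2.01-fold lower, edgeR adjusted p = 0.000933). Bmp3 had 30.3 ± 2.91 CPM in F1 and 55.7 ± 12.7 in F0, a log2 difference of -0.88 ± 0.17 (1.84-fold lower, edgeR adjusted p = 0.00379). All F1 CD mice lay below both F0 CD mice for these 3 genes, without overlap, as was the case for 24.7% of genes in that direction. Without F0 CD mouse 2, Bmp3 was at -0.63 ± 0.20 and no longer past the threshold (edgeR adjusted p = 0.0950).

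Mest did not share that difference in level. It had 18.3 ± 3.49 CPM in F1 CD mice and 16.7 ± 7.54 in F0 CD mice, whose values of 22.0 and 11.4 lay on either side of all 3 F1 values. The log2 difference was 0.15 ± 0.35 (edgeR adjusted p = 0.816), with an interval of -0.55 to 0.84 (1.96 SE), and it was -0.27 without F0 CD mouse 2. All 8 adipocyte markers had lower values in F1 CD than in F0 CD mice, 4 of them past the threshold, and all 8 skeletal muscle markers were lower. Their part in the differences of Sfrp5, Bmp3 and Npr3 was not tested.

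**Figure D2:**
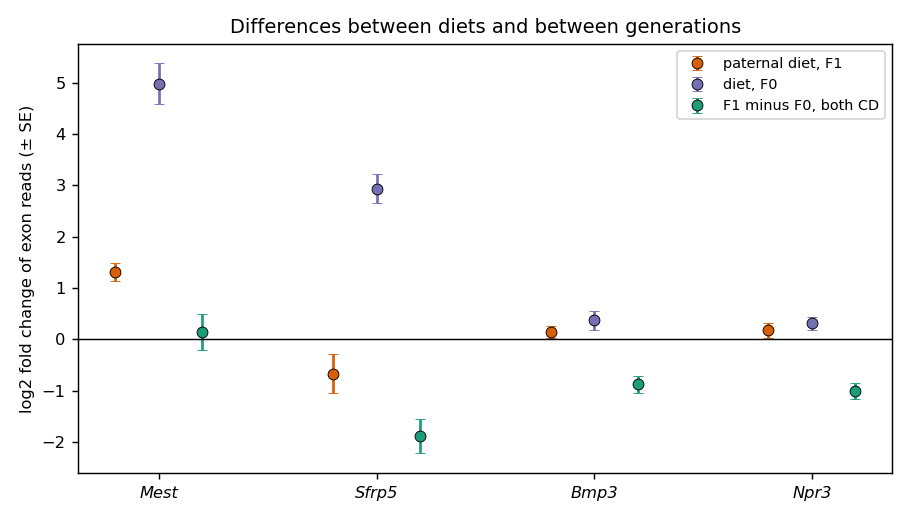
Log2 fold changes of exon reads (points) with their SE (bars) for the 4 genes in 3 comparisons: pLPD minus CD offspring in F1, LPD minus CD in F0, and F1 minus F0 on CD. Mest rises to 4.99 and Sfrp5 to 2.93 in the F0 diet comparison, and Sfrp5, Bmp3 and Npr3 lie below 0 between generations (-1.89, -0.88 and -1.01).

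Ordered by level over the 4 groups, Mest ran from LPD-fed F0 males through pLPD offspring to both CD groups, which overlapped. Sfrp5 ran from LPD-fed to CD-fed F0 males and then to both F1 groups, which overlapped. Bmp3 separated the generations, with overlap between the diets in each. Npr3 ran from LPD-fed to CD-fed F0 males, the neighbours differing by 0.31 ± 0.13 on the log2 scale, and then to both F1 groups, which overlapped.

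Intron reads, which come largely from RNA not yet spliced, gave a second readout of the same libraries. Mest had 56 and 62 intron reads on CD and 154 and 278 on LPD in F0, a log2 fold change of 1.98 ± 0.32 (3.96-fold), or 1.37 ± 0.20 without LPD mouse 2. In F1 it had 37, 64 and 51 intron reads in the CD group and 79, 44 and 50 in the pLPD group, which overlapped, with a log2 fold change of 0.32 ± 0.26. For Bmp3 the intron difference was 0.62 ± 0.33 in F1 and 0.32 ± 0.21 in F0, and for Npr3 0.55 ± 0.20 and 0.29 ± 0.13. Sfrp5 had at most 14 intron reads in a library and was not tested. Past the threshold in edgeR's test were thus 0 of 3 tested genes in F1 (1, Npr3, at an unadjusted p under 0.05), where 57 of 13456 were (0.424%). In F0 it was 1 of 3, Mest, where 499 of 14334 were (3.48%), 195 of them higher on LPD (1.36%). The genes were chosen with the diet differences of these libraries known, so nothing is read from their share here either.

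The exon reads of Mest differed more between diets than its intron reads. In F0, Mest had 3.52 and 1.84 exon reads per intron read on CD and 21.1 and 21.8 on LPD. In F1 it had 2.86, 2.69 and 3.02 in the CD group and 4.67, 6.25 and 5.48 in the pLPD group. Neither pair of groups overlapped, and both LPD groups were the higher ones. Such a separation with the LPD group higher was found for 24.2% of 11880 genes in F0 and for 2.88% in F1. The mean log2 ratio differed by 3.08 in F0 and by 0.93 in F1, with medians over those genes of 0.03 and -0.08. The F1 difference ran against that of the libraries as a whole, in which introns held a larger share in pLPD offspring. Npr3 differed in the same direction as the libraries, its ratio being lower in all pLPD mice, a separation found for 9.12% of genes. Its mean log2 difference of -0.51 lay farther from 0 than the median of -0.08. For Bmp3 the mean log2 difference in F1 was -0.65, with overlapping groups.

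**Figure D3:**
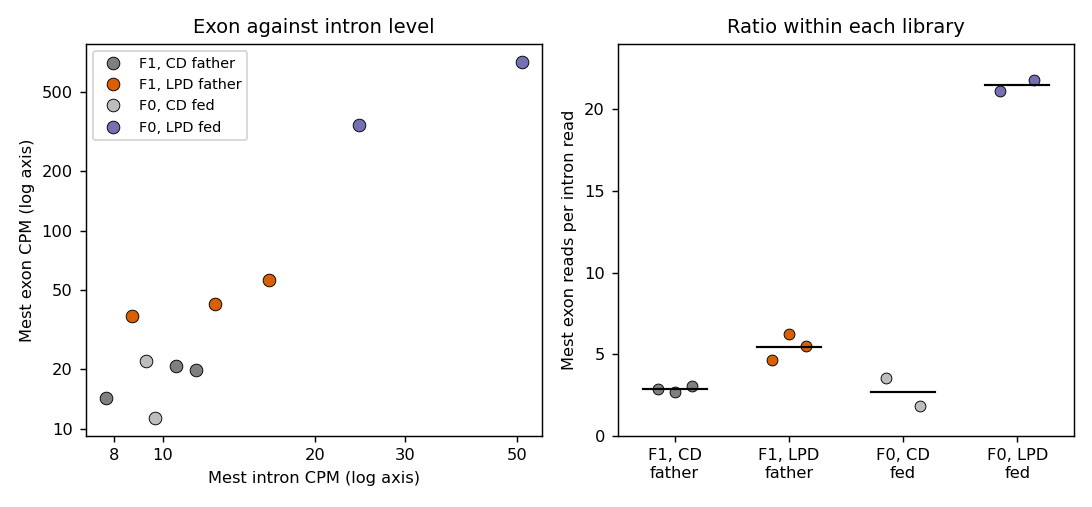
Mest exon CPM against Mest intron CPM on log axes (left), and exon reads per intron read in each library with group means as lines (right), 1 point per mouse. The LPD-fed F0 males stand at 21.1 and 21.8 exon reads per intron read, the pLPD offspring between 4.67 and 6.25, and the CD mice of both generations between 1.84 and 3.52.

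Reads across exon junctions came only from spliced Mest RNA and followed the exon reads. There were 52 and 17 of them in CD-fed and 910 and 1691 in LPD-fed F0 males, and 34, 42 and 45 in CD and 112, 86 and 75 in pLPD offspring. Between 74.5% and 83.1% of Mest exon reads were uniquely mapped, whereas all those of Sfrp5 were. Of the 4031 stretches of 36 bases in annotated Mest transcripts, 0 recurred in transcripts of other genes in GENCODE vM21, overlapping Copg2 left aside. With uniquely mapped reads alone, the log2 diet differences of Mest were 1.31 in F1 and 4.91 in F0.

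Mest overlaps Copg2, a coatomer subunit gene on the opposite strand, by 912 bases. Because the strand setting of the counting is not stated, reads in the overlap cannot be assigned to one of them. Copg2 exon reads differed by 0.14 ± 0.09 in F1 and 0.47 ± 0.12 in F0 on the log2 scale, neither past the threshold. Its intron reads were higher on LPD in F0, with 659 and 688 on CD against 991 and 1367 on LPD, by 0.92 ± 0.18 and past the threshold. Tmem209, Cep41, Copg2 and Klf14 start within 250 kb of Mest and reached 10 exon reads in a library, and none of these 4 was past the threshold for exon reads in edgeR's test. Without a filter on low counts, Copg2 (0.47), Cep41 (0.71) and Klf14 (1.02) were past it in F0, as they were with the replicate number as a block (0.46, 0.71 and 1.02). Klf14, an imprinted gene for a Krüppel-like factor that is transcribed from the maternal allele, had 35 and 37 exon reads on CD and 64 and 75 on LPD in F0, a log2 fold change of 1.02 ± 0.24. Cep41, a centrosomal protein gene, had a log2 fold change of 0.71 ± 0.24 in F0. Mir335, a miRNA gene within Mest, was listed with an exon length of 0 and with 0 reads in all 10 libraries. The other genes near Mest with an exon length of 0 also had 0 reads, so the level of Mir335 was not measured. The preparation does not select small RNA either.

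Pooled over the groups, the mice of a group differed more in Mest and Sfrp5 than in most genes of similar mean level. The SD of the log2 CPM about the group mean, pooled over the 4 groups, was 0.47 for Mest, which lay at the 99.1 percentile of 2706 genes of similar mean level, and 0.47 for Sfrp5, at the 99.2 percentile of 5277 genes. For Bmp3 it was 0.24 (92.8 percentile of 5091 genes) and for Npr3 0.23 (89.9 percentile of 664 genes). The means of Mest and Sfrp5 over all mice are dominated by the LPD-fed males, so each group was also set against genes of its own level. Mest then lay at the 86.4 percentile in CD and 95.3 in pLPD offspring, and at 99.6 in CD-fed and 100 in LPD-fed F0 males. Sfrp5 lay at 90.3 in CD but 60.3 in pLPD offspring, and at 56.2 in CD-fed but 99.96 in LPD-fed F0 males. Npr3 lay at the 97.1 percentile in F1 CD mice, where mouse 1 was low, but at the 24.1 percentile in pLPD offspring.

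In the LPD-fed males, mouse 2 exceeded mouse 1 in all 4 genes, by 2.07-fold for Mest, 1.95-fold for Sfrp5, 1.46-fold for Bmp3 and 1.26-fold for Npr3. The summed adipocyte markers were also higher in mouse 2, at 21329 against 16663 CPM, and the skeletal muscle markers lower, at 699 against 958 CPM. Their part in the difference between these mice was not tested. To ask whether the genes varied together beyond the groups, the 6 pairs were correlated over the 10 libraries with group means removed. Pearson's r was between 0.29 and 0.64 and Spearman's rho between 0.33 and 0.68, and no pair passed an exact two-sided permutation test within groups (smallest adjusted p = 0.319 for r and 0.292 for rho). Bmp3 and Npr3 had an r of 0.60 and a rho of 0.65 (exact permutation p = 0.0833 and 0.0694). They fell on the same side of their group means in 9 of 10 libraries. Their r was 0.56 without the 2 libraries farthest from the median, F0 CD mouse 2 and F0 LPD mouse 2. Without the 2 LPD-fed males it was 0.48 (exact permutation p = 0.167). Mest and Sfrp5 had an r of 0.52 and a rho of 0.61 (exact permutation p = 0.243 and 0.201), which fell to 0.24 for r without the 2 LPD-fed males.

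Over the 10 libraries with group differences included, the genes most like each member were named by Pearson's r of the log2 CPM among 14567 genes, as a description. All points share the same libraries, and for Mest and Sfrp5 the LPD-fed males carry most of the range. Nearest to Mest were Wdr1 (r = 0.96), A530053G22Rik (0.95) and Hsdl2 (0.95), whose F0 means differed far less than that of Mest, Wdr1 from 163 to 180 CPM and Hsdl2 from 128 to 193 CPM. Nearest to Sfrp5 were Cyp4v3 (0.99, 68.4% of its reads unique), Synpo2 (0.99) and Srpx2 (0.98), with Synpo2, an actin-associated protein gene, at 194 CPM on CD and 408 on LPD in F0. Nearest to Bmp3 were Tln2, Thbs2 and Zfp36 (all 0.98), and nearest to Npr3 were Tmem106a, Tcp11l1 and Tmem45b (all 0.98). Among the members, Bmp3 and Npr3 were most alike (r = 0.95), Npr3 ranking 38 for Bmp3 and Bmp3 ranking 32 for Npr3. Mest and Sfrp5 were less so (r = 0.74), Sfrp5 ranking 286 for Mest.

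The other genes of the same pathways were then counted. Of all genes tested, 1.17% were past the threshold in F1 and 2.5% in F0. The lists were written with earlier results known, so nothing is read from their shares. Genes of the lists past the threshold in a diet comparison were named for that reason, so their adjusted p-values are a description. Among the genes of WNT signalling, 36 of 46 were tested in F1, of which 0 were higher and 3 lower in pLPD offspring, with a median log2 fold change of -0.10 against 0.01 over all genes. Wisp2, a secreted WNT target, was at 9.91 CPM in CD and 2.22 CPM in pLPD offspring (log2 fold change -2.14 ± 0.26, edgeR adjusted p = 0.00590), and it was past the threshold in all 6 fits with 1 mouse left out. Sfrp2, a secreted relative of Sfrp5, went from 96.5 to 49.1 CPM (-0.97 ± 0.14, edgeR adjusted p = 0.0114), and Nkd1, an intracellular WNT inhibitor, from 13.7 to 6.26 CPM (-1.12 ± 0.22, edgeR adjusted p = 0.0430). Sfrp2 was past the threshold in 3 and Nkd1 in 2 of 6 fits with 1 mouse left out. In F0, where Sfrp5 itself was higher, 0 of 39 WNT genes were past the threshold in edgeR's test and 0 in DESeq2's, 8 had an unadjusted p under 0.05, and the median was -0.08. The share of all genes at an unadjusted p under 0.05 is not given here. Nothing is therefore read from counts at that level, for this list or any other. The genes of the list with the highest level were Ctnnb1, the WNT effector beta-catenin, at 30.7 RPKM and Fzd4, a WNT receptor, at 29.3 RPKM over all mice.

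Of the genes of BMP and activin signalling, 0 of 32 were past the threshold in F1 in edgeR's test and 1 in DESeq2's, with 5 at an unadjusted p under 0.05 and a median of -0.07. In F0 it was 2 of 36 in edgeR's test, where 2.5% of all genes were, and 0 in DESeq2's, with 18 values above and 18 below 0. Id3, a target of BMP signalling, went from 30.3 CPM on CD to 41.5 CPM on LPD (log2 fold change 0.45 ± 0.10, edgeR adjusted p = 0.0496), and Gdf10, a close relative of Bmp3, from 41.8 to 29.0 CPM (-0.53 ± 0.10, edgeR adjusted p = 0.0345). Neither was past the threshold in any of the 4 fits with 1 mouse left out, where they lay between 0.41 and 0.48 and between -0.58 and -0.47. Fstl1, a secreted follistatin relative, had the highest level of the list at 37.2 RPKM over all mice, followed by Id3 at 12.9 RPKM.

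Of the genes of natriuretic peptide and cGMP signalling, 1 of 9 was past the threshold in F1, where 1.17% of all genes were. In this list, 8 of the 9 values were below 0 and the median was -0.33. The gene past it was Npr1, the receptor through which the peptides act and which competes with Npr3 for them, at 72.8 CPM in CD and 48.5 CPM in pLPD offspring (log2 fold change -0.58 ± 0.10, edgeR adjusted p = 0.0216). Npr1 was past the threshold in 2 of 6 fits with 1 mouse left out, with values of -0.63 to -0.52. In F0, 0 of 9 were past it in edgeR's and in DESeq2's test, with 4 at an unadjusted p under 0.05 and a median of -0.12. The genes of highest level were Furin, a protease that activates precursor proteins, at 9.39 RPKM and Mme, a peptide-degrading protease, at 6.50 RPKM.

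A last list held genes of caveolae and leptin, which vary with adipocyte size. None were past the threshold in edgeR's test, with 0 of 9 in F1 (0 in DESeq2's, 2 at an unadjusted p under 0.05, median 0.18) and 0 of 10 in F0 (1 in DESeq2's, 3 at an unadjusted p under 0.05, median 0.11). Its most abundant genes were Cd36, a fatty acid transporter, at 281 RPKM and Cav1, the main caveolar protein of adipocytes, at 138 RPKM. Cav1 was at 1219 CPM in CD-fed and 1294 CPM in LPD-fed F0 males, and Cd36 at 1992 and 2654 CPM. Between F1 and F0 on CD, past the threshold were 6 of 39 genes of the WNT list, 9 of 36 of the BMP list, 3 of 9 of the natriuretic peptide list and 1 of 10 of the caveolae list, against 18.9% of all genes tested. They went both ways, with 3 higher and 3 lower in F1 for WNT and 4 higher and 5 lower for BMP.

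**Figure D4:**
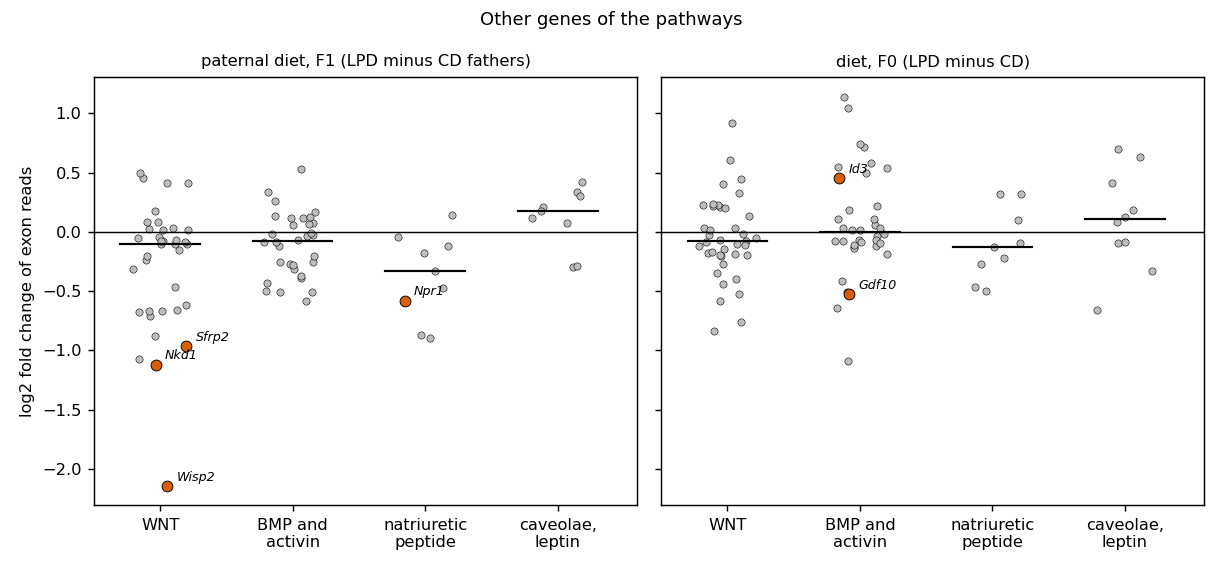
Log2 fold changes of exon reads of the other genes of 4 pathway lists, between paternal diets in F1 (left) and between diets in F0 (right), 1 point per gene tested. Genes past the adjusted threshold are orange and named, and lines give the median of each list; 3 WNT genes and Npr1 lie below 0 in F1, and Id3 above and Gdf10 below 0 in F0.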

How the data were processed

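Male mouse iWAT was measured by RNA-seq of rRNA-depleted, directional libraries in 10 mice, grouped by the sample labels into F1 CD (3), F1 pLPD (3), F0 CD (2) and F0 LPD (2). The deposited count columns give the authors' reads per gene on exons, introns and exon junctions, mapped to mm10 in CLC Genomics Workbench 9.5.1 without normalization. No source used here gives the strand setting or the handling of reads with several matches. The RPKM values, which the authors computed from exon reads, exon length and a library total, served only to compare levels between genes. The members and the lists were chosen with earlier results of these data known.

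Exon reads were compared in R 4.3.3 with edgeR 4.0.16: filterByExpr, TMM, the two-sided quasi-likelihood F test and Benjamini-Hochberg adjustment over all genes tested, with a threshold of 0.05. The F1 and F0 diets were fitted apart, and the generations and the difference of diet effects in a fit of all 10 libraries. SE is the log2 fold change divided by the square root of F. Intron reads were fitted alike for genes with an exon length. Alternatives were DESeq2 1.42.0, DESeq2's size factors, no filter, unique reads, whole gene reads, a joint fit of the groups, a block for the replicate number, and each mouse left out. Log values for spread and correlation are log2(CPM + 0.5).

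The 4 genes are named with, in each of 4 hand-written pathway lists, the genes past the threshold in a diet comparison and the 2 of highest mean RPKM. Genes starting within 250 kb of Mest with at least 10 exon reads in a library, and the 3 genes most like each member (mean CPM of 1 or more) were also named, except for an item not reported here. Further lists held markers of 9 cell types. With 2 or 3 mice per group, the SD and SE are themselves imprecise.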

Additional observations from a re-analysis of the deposited data

Results flagged for a closer look

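Mest and Sfrp5 drew attention because the difference between their diet effects in the 2 generations was past the adjusted threshold in edgeR's fit of all 10 libraries. The log2 difference in F1 minus that in F0 was -3.68 ± 0.46 for Mest, whose LPD groups were higher in both generations, and -3.06 without F0 LPD mouse 2. For Sfrp5 it was -3.61 ± 0.51, with all LPD-fed males above the CD-fed ones in F0 and overlapping groups in F1. Mest was chosen by its diet difference and the diet differences of both genes were known when they were taken, so these values are a description and not independent evidence. The LPD mice had eaten the diet themselves in F0 only, and generation, age and library prefix cannot be told apart.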

How the results depend on the processing

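The diet differences of Mest were past the threshold under all 7 alternatives other than leaving out a mouse, at 1.10 to 1.32 in F1 and 4.61 to 4.99 in F0, and so were those of Sfrp5 in F0, at 2.88 to 2.94. With each mouse left out, Mest was past it in 5 of 6 fits in F1 (1.13 to 1.44, the exception being 1.17 without F1 CD mouse 1) and in 4 of 4 in F0 (4.37 to 5.53), and Sfrp5 in 4 of 4 (2.38 to 3.34). These calls describe values with which the genes were chosen. Sfrp5 in F1 lay at -0.96 to -0.26. Bmp3 in F0 was past it without a filter (0.37) and with the replicate block (0.37), and lay at 0.07 to 0.63 with a mouse left out. Npr3 in F1 lay at -0.0078 to 0.28, the lowest without F1 CD mouse 1, and its F0 intron difference at 0.086 to 0.48, past the threshold at 0.41 without F0 CD mouse 1. Between generations, Mest lay at -0.27 to 0.68, below 0 without F0 CD mouse 2, and Bmp3 at -1.10 to -0.63, not past the threshold at -0.63 without that mouse. The difference of diet effects lay at -0.49 to 0.065 for Bmp3 and at -0.33 to 0.031 for Npr3, above 0 without F0 LPD mouse 2, and at -4.20 to -3.06 for Mest and -4.01 to -3.05 for Sfrp5. Mest and Bmp3 had an r of -0.22 without the 2 libraries farthest from the median, which were both F0 LPD libraries. With intron reads, of which Sfrp5 has few, r was -0.52 for Sfrp5 and Bmp3 and -0.16 for Sfrp5 and Npr3. The cause of these changes was not tested.

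Counts over all genes moved more. In F1, 20 genes were higher and 144 lower, against 74 and 301 with DESeq2, 234 and 564 without a filter, 62 and 277 in one fit of all groups, 42 higher with unique reads and 48 higher with the replicate block. In F0, 172 were higher and 192 lower, against 633 and 710 without a filter, 656 and 735 with the replicate block and 110 and 65 in one fit. For the difference of diet effects, 54 were higher and 135 lower, against 110 and 243 with DESeq2, 314 and 576 without a filter and 83 higher with the replicate block. Same-numbered mice correlated by 0.0010 to 0.072 in F1, where mice of unlike number correlated by -0.085 to 0.067. In F0 same-numbered mice correlated by 0.060. With 2 mice per group and group means removed, all F0 values have the same size, so they cannot show whether the numbers pair the mice. The block changed the calls of Bmp3, Copg2, Cep41 and Klf14 in F0 and no other call of the genes followed. With a mouse left out, 1 to 140 genes were higher and 17 to 370 lower in F1, lowest without F1 CD mouse 1 and highest without F1 CD mouse 3. In F0, 68 to 281 were higher and 37 to 223 lower, between generations 453 to 1526 and 340 to 1384, and for the difference of diet effects 5 to 132 and 14 to 263. For intron reads, 3 to 54 were higher and 2 to 136 lower in F1, and 104 to 414 and 185 to 550 in F0. With 1 CD or LPD mouse left in F0, that mouse is assumed to vary like the other group. Sfrp5 in F1 rests on 17 to 57 reads per library, which limits its precision.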

Other observations

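Lep, the adipokine leptin, was chosen after its values were seen, since leptin mRNA also varies with fat mass. It stood at 501 CPM in CD-fed and 775 CPM in LPD-fed F0 males (log2 fold change 0.63 ± 0.20) and at 375 and 497 CPM in CD and pLPD offspring (0.42 ± 0.23), neither past the threshold. Of the cell types not yet described, all 3 tested epithelial markers and all 4 smooth muscle markers had log2 fold changes below 0 in pLPD offspring, 2 and 1 of them past the threshold in edgeR's test (1.17% of all genes were). All 7 lymphocyte markers were above 0 in pLPD offspring, with 0 past it. In F0, where 2.5% of all genes were past it, 1 of 7 lymphocyte markers was past it and higher on LPD (5 above 0). Past it and lower were 1 of 4 smooth muscle markers (4 below 0), 1 of 4 Schwann cell markers (3 below 0), 1 of 6 macrophage markers (3 below 0) and 1 of 8 adipocyte markers (1 below 0). Of the adipose progenitor markers, 0 of 7 were past it in either diet comparison in edgeR's and DESeq2's tests, with 6 below 0 in each. An unadjusted p under 0.05 was found for 5 of them in F1 and 2 in F0. Of the endothelial markers 0 of 5 were past it in either test, with 5 below 0 in F1 and 2 in F0. In each comparison 2 of them were at an unadjusted p under 0.05. The part of these markers in the diet differences of the 4 genes was not tested.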
